A study of Chromochloris zofingiensis with 38 samples.

Results

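BKT1 (Cz13g13100) and CHYb (Cz12g16080) code for the enzymes that turn beta-carotene into the red ketocarotenoid astaxanthin in the green alga Chromochloris zofingiensis, and their mRNA levels were followed through TOR inhibition and glucose addition. The genes were chosen by their place on this route, as rows of the table of gene counts. The choice named 3 genes, of which 2 were found among the 12459 genes of the table. The third, Cz05g32220 (phytoene synthase, PSY), was not analysed here.

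Carotenoids are made in the plastid from an isoprenoid precursor. Phytoene synthase commits that precursor to the pathway by joining a pair of its molecules into phytoene, which is desaturated to lycopene and cyclised to beta-carotene. The beta-carotenoid hydroxylase CHYb adds hydroxyl groups to the end rings, and the beta-carotenoid ketolase BKT1 adds keto groups to them, and a ring that carries both kinds of group is that of astaxanthin. C. zofingiensis is known for storing astaxanthin under nutrient stress or strong light and when fed glucose. TOR (target of rapamycin) is the protein kinase that ties growth to nutrient supply.

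Poly(A) RNA was sequenced from frozen pellets of wild-type (WT) cells, with no mutant in the series. The 38 libraries carried 5 treatment labels at 1 h and again at 24 h, namely GA, AZD (the TOR inhibitor), Glu (glucose), S, and None. The labels do not spell out GA, which has the initials of glucose and AZD, or S, and give no dose. There were 4 libraries a group, but 3 for GA at 24 h and 3 for AZD at 1 h. All 1 h titles carry one prefix and all 24 h titles another, and the 2 cannot be told apart. Whether replicates are separate cultures is not stated, and the p-values therefore speak only of the spread among these libraries, which may be technical.

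Library totals ran from 12414643 to 106150532 counts. BKT1 held 865 to 44629 estimated counts per library and CHYb 3064 to 46234. Levels below are CPM (counts scaled to a common library size) after TMM scaling, which aims to place the middle of the expressed genes near no change. On this scale the median log2 change of all genes against None at 1 h was 0.13 in GA and 0.11 in AZD. Transcript lengths were not used here, so the 2 genes are compared by their changes and not by their levels. With TMM, the scaling factors ran from 0.570 to 0.664 in GA at 1 h, against 1.17 to 1.20 in None at 1 h. What part such shifts in composition had in the results was not tested, and values that change call or sign with the scaling are given beside the result. S replicate 1 and Glu replicate 4 at 1 h lay farther from the rest of their groups than any other library, at root mean square log2 distances of 0.753 and 0.698.

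After 1 h the ketolase gene BKT1 stood highest in GA, then in AZD and Glu, and lowest in S and None. BKT1 measured 768, 801, 796 and 688 CPM in the 4 GA libraries. In AZD it measured 546, 550 and 421 CPM, in Glu 479, 367, 386 and 589 CPM, in S 210, 247, 297 and 303 CPM, and in None 237, 224, 220 and 240 CPM. Every GA, AZD and Glu library lay above every S and None library, and the GA libraries lay above all others.

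**Figure D1:**
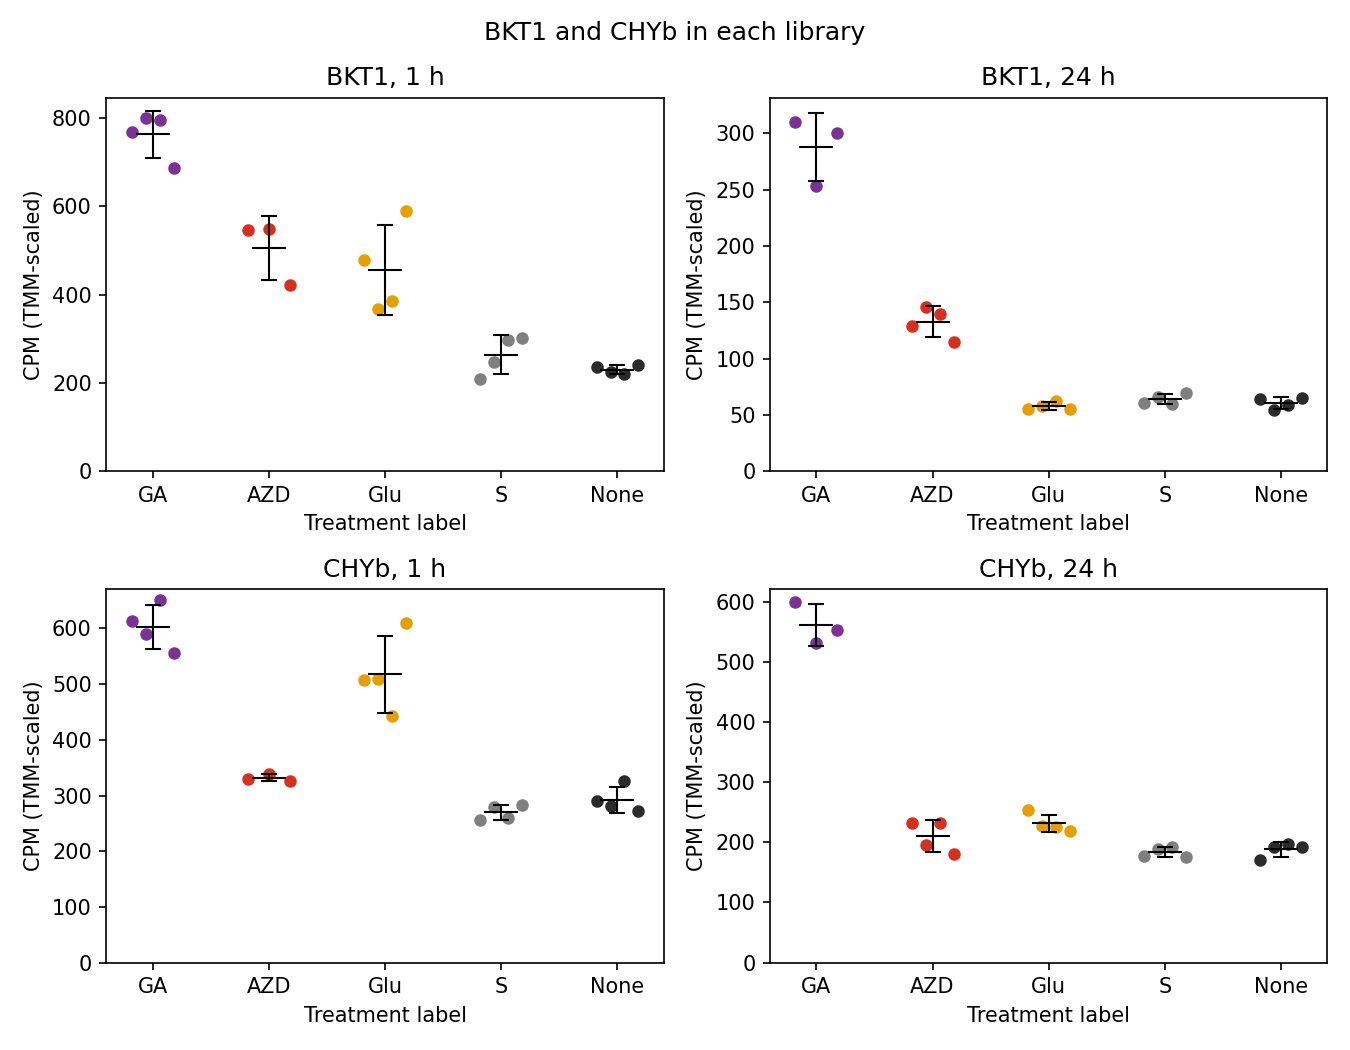
CPM of BKT1 (top) and CHYb (bottom) in each library at 1 h (left) and 24 h (right), by treatment label, each point 1 library and each bar the mean ± SD. At both times the GA libraries hold the highest mean of either gene, from 288 CPM for BKT1 at 24 h to 763 CPM for BKT1 at 1 h.

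BKT1 averaged 763 ± 52.3 CPM in GA and 230 ± 9.91 CPM in None at 1 h (SD, n = 4 each), a rise of 3.31-fold (log2 1.73 ± 0.13, SE; quasi-likelihood test in edgeR, p adjusted by Benjamini-Hochberg, adjusted p = 1.71e-13). In AZD it averaged 506 ± 73.1 CPM (n = 3) against the same None libraries, 2.19-fold higher (log2 1.13 ± 0.14, edgeR adjusted p = 1.54e-08). It was higher in Glu too, at 455 ± 102 CPM (n = 4), 1.98-fold above None (log2 0.98 ± 0.13, edgeR adjusted p = 2.97e-07). S averaged 264 ± 44.1 CPM (n = 4) and was not called against None, where 0.0659% of all genes tested were called, with a log2 difference of 0.20 and a 95% interval of -0.06 to 0.46 (edgeR adjusted p = 0.539). These comparisons share the None libraries.

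In the order of levels at 1 h, GA stood above its neighbour AZD by 1.51-fold (log2 0.59 ± 0.14, edgeR adjusted p = 0.000954), a call lost with libraries scaled by their totals alone (log2 0.10). AZD and Glu were not told apart (log2 0.15 for AZD over Glu, 95% interval -0.13 to 0.43, edgeR adjusted p = 0.364). Glu stood above S by 1.72-fold (edgeR adjusted p = 1.30e-05), and S and None were not told apart. The S libraries, a second set with low levels, gave differences like those from None, at 2.89-fold for GA (edgeR adjusted p = 2.96e-12) and 1.91-fold for AZD (edgeR adjusted p = 5.97e-07). Called higher were 36.0% of all genes tested in GA against S, 28.4% in AZD against S and 15.8% in Glu against S, and with library totals 11.9%, 13.8% and 6.54%. Of the 10 pairs of groups at 1 h, BKT1 was called in 8. Of the 12142 genes tested, 3362 to 8101 were called in each pair other than S against None.

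CHYb, the hydroxylase gene, was higher at 1 h in both GA and Glu than in the other groups. It measured 613, 590, 651 and 556 CPM in GA and 508, 508, 442 and 611 CPM in Glu. The AZD libraries held 330, 339 and 327 CPM, those of None 290, 281, 326 and 272 CPM, and those of S 257, 279, 260 and 283 CPM. GA and Glu overlapped each other and lay wholly above the other 3 groups, and AZD lay just above the highest None library.

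In GA the level of CHYb was 602 ± 39.8 CPM and in None 292 ± 23.4 CPM (n = 4 each), 2.06-fold higher in GA (log2 1.04 ± 0.10, edgeR adjusted p = 3.82e-11), a call lost with library totals (log2 0.069). In Glu it reached 517 ± 69.5 CPM (n = 4), 1.77-fold above None (log2 0.82 ± 0.10, edgeR adjusted p = 5.56e-08). AZD averaged 332 ± 6.20 CPM (n = 3) and was not called against None on this scale (log2 0.18 ± 0.11, 95% interval -0.03 to 0.40, edgeR adjusted p = 0.141), and was called lower than None with library totals (log2 -0.29). GA and Glu were not told apart (log2 0.22 for GA over Glu, 95% interval 0.02 to 0.42, edgeR adjusted p = 0.0555). They were with the TMM factors of the other libraries kept and Glu replicate 4 (log2 0.31) or GA replicate 4 (log2 0.26) left out, and by DESeq2 (log2 0.21), and with library totals GA was called lower (log2 -0.29). AZD was called below Glu (log2 -0.64 ± 0.11, edgeR adjusted p = 5.96e-06), where 28.4% of tested genes were called lower. AZD exceeded S by 1.23-fold (edgeR adjusted p = 0.0174). That call was lost without AZD replicate 2 (log2 0.28), or without S replicate 1 with TMM recomputed (log2 0.18). It was also lost with no filter on low counts (log2 0.20) or in a fit of both groups alone (log2 0.21), and the difference reversed in sign with library totals (log2 -0.038). CHYb was called in 7 of the 10 pairs of groups at 1 h, beside the 3362 to 8101 genes called in each pair other than S against None.

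Among all 12142 genes tested at 1 h, 37.0% were called higher in GA than in None, as both genes were. In AZD against None 30.1% were called higher, BKT1 among them and CHYb not, and in Glu against None 17.5% were, both genes among them. With library totals these shares were 10.5% in GA, 11.5% in AZD and 5.99% in Glu. In Glu, 5.72% of the tested genes had a log2 fold change at least as high as that of BKT1 and 7.95% one at least as high as that of CHYb. In GA the shares were 6.21% for BKT1 and 17.9% for CHYb, and in AZD 8.98% for BKT1 and 46.2% for CHYb. In GA against AZD, where 22.2% of genes were called higher (7.77% with library totals), both genes were called higher too, and 17.4% of tested genes had a change at least as high as that of BKT1 and 9.74% one at least as high as that of CHYb (log2 0.86 ± 0.11, edgeR adjusted p = 1.38e-07). In GA against Glu 31.6% of genes were called higher (12.4% with library totals), BKT1 among them (log2 0.74 ± 0.13, edgeR adjusted p = 7.70e-06), though not with library totals (log2 0.24).

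**Figure D2:**
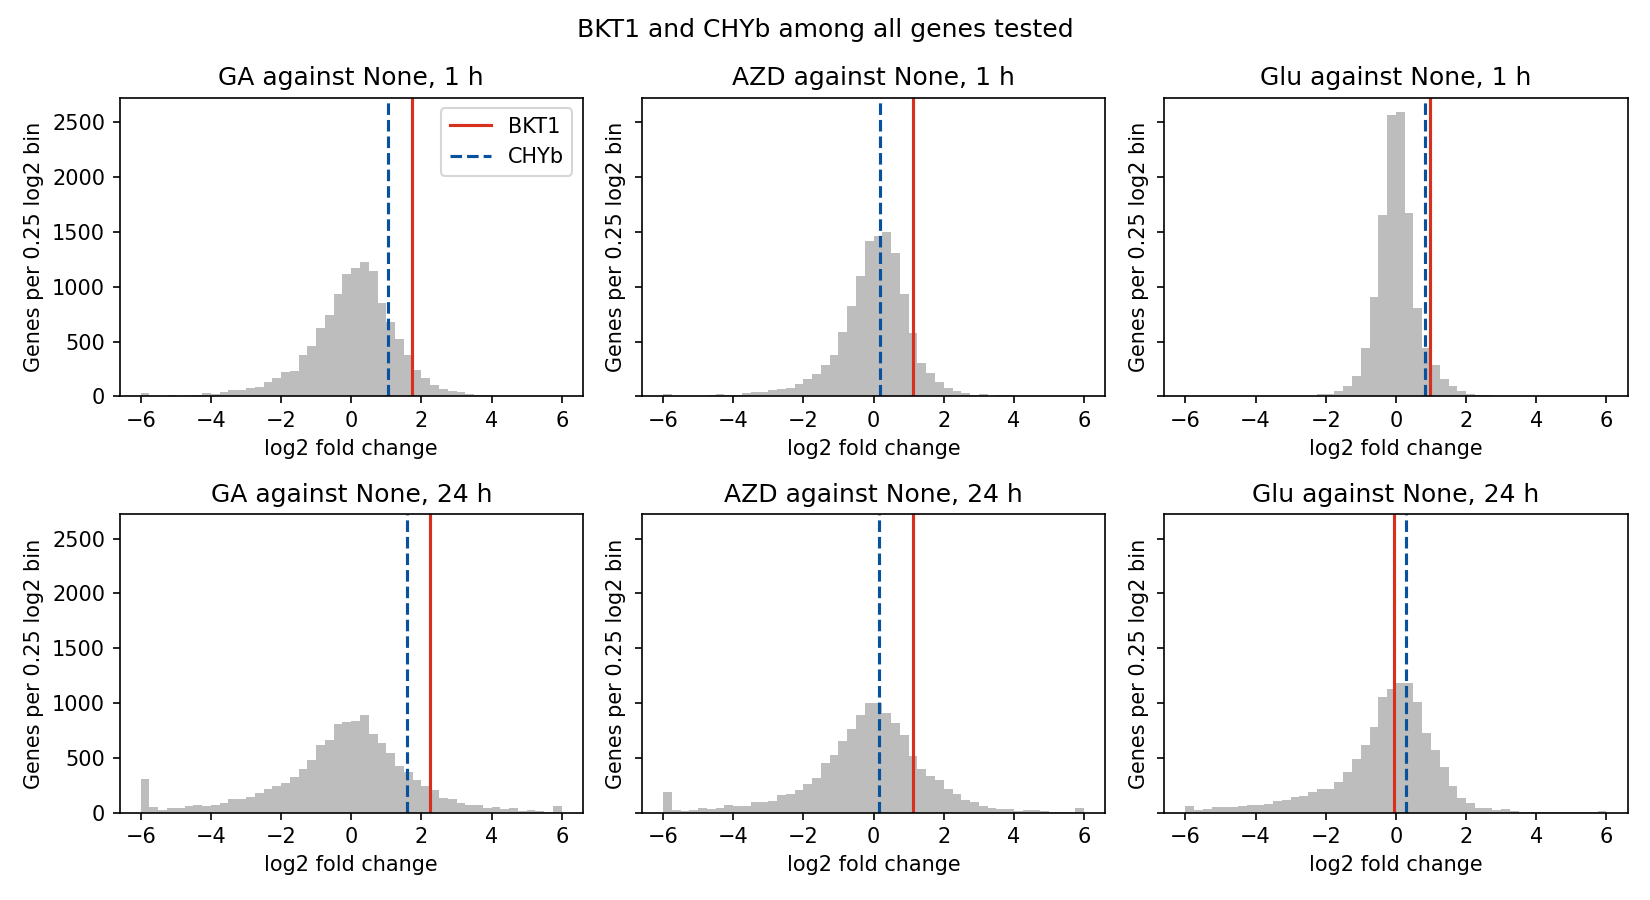
Histograms of the log2 fold change over all genes tested for GA, AZD and Glu, each against None, at 1 h (top) and 24 h (bottom), with the outermost bins holding all genes beyond them. The vertical lines mark BKT1 (solid) and CHYb (dashed), with BKT1 to the right of CHYb in every panel other than Glu at 24 h.

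Scaling changed the size of the 1 h differences and, for CHYb, their direction. With library totals in place of TMM the median log2 change of all genes against None at 1 h was -0.84 in GA, -0.37 in AZD and -0.45 in Glu. On that scale CHYb fell by 0.29 in AZD against None, was not called in GA against None (log2 0.069), and fell by 0.29 in GA against Glu. BKT1 still rose against None by 0.75 in GA, 0.65 in AZD and 0.51 in Glu, while its differences of 0.24 between GA and Glu and 0.10 between GA and AZD were no longer called. A difference from the median gene is free of the scaling almost by construction, and is given as a description. On the TMM scale BKT1 stood above that median in GA against None by 1.60. For CHYb the same value was 0.91 in GA and 0.08 in AZD.

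**Figure D3:**
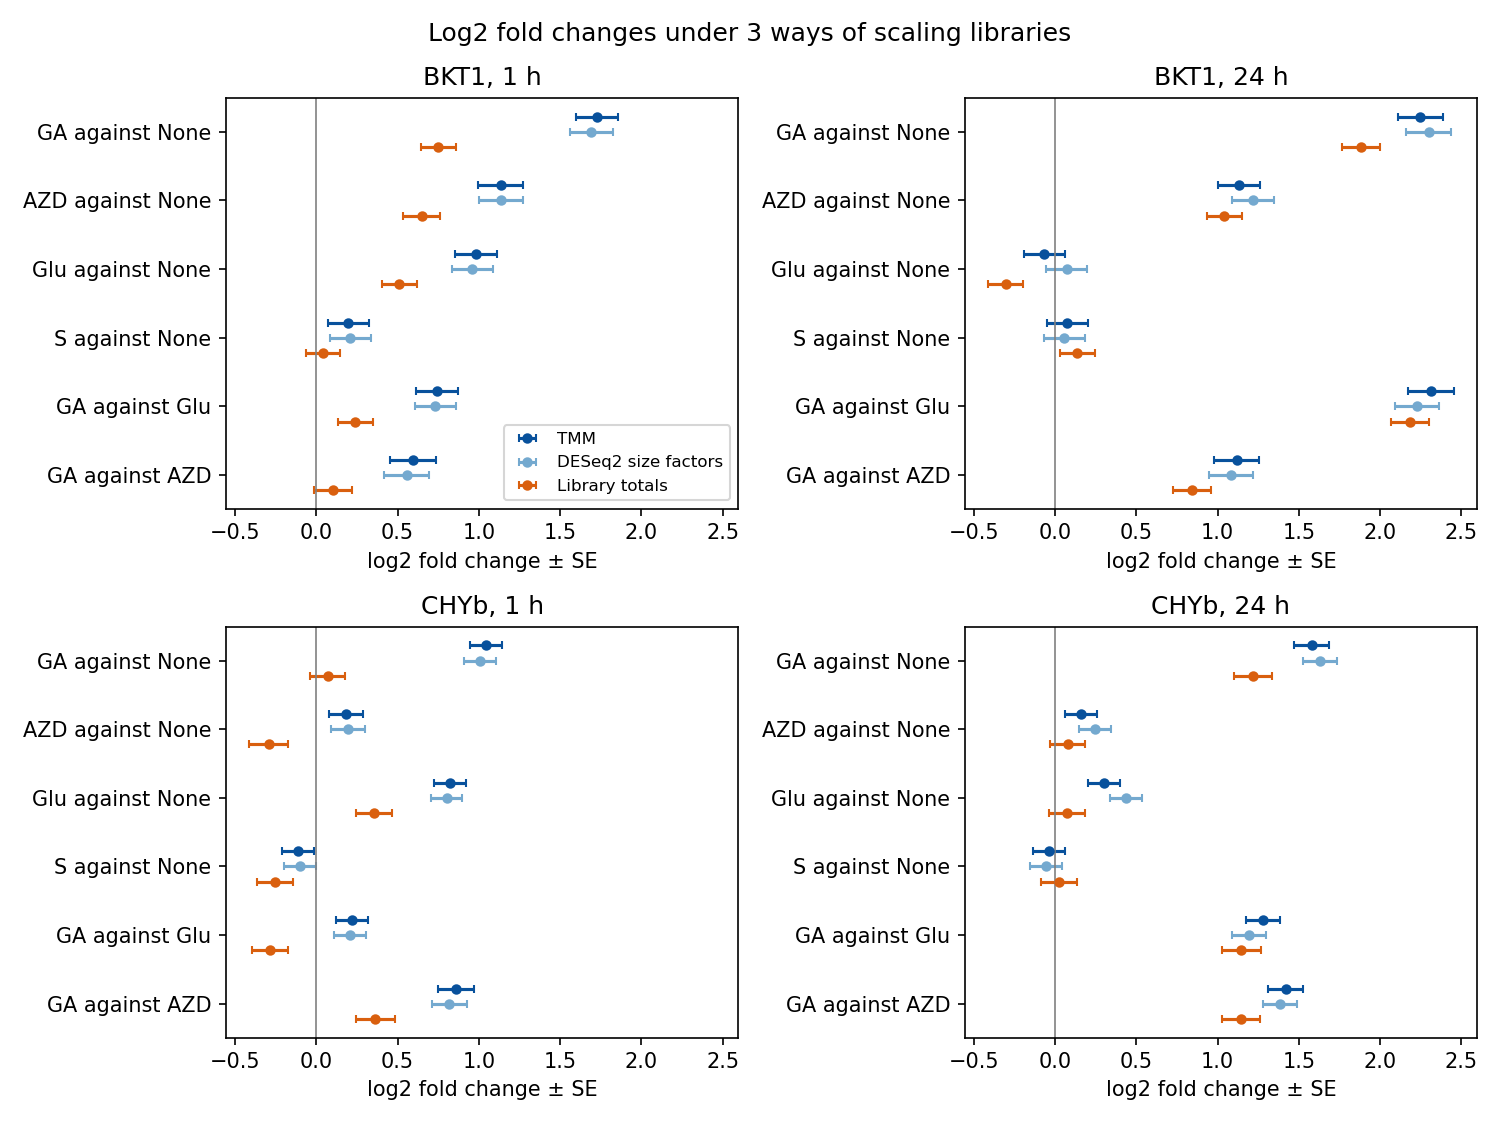
Log2 fold changes ± SE of BKT1 (top) and CHYb (bottom) at 1 h (left) and 24 h (right) with libraries scaled by TMM, by DESeq2 size factors or by their totals alone. Library totals place most 1 h values lower, and at 1 h turn CHYb negative, at -0.29 with totals and 0.18 with TMM for AZD against None, and at -0.29 with totals and 0.22 with TMM for GA against Glu. BKT1 in Glu against None at 24 h is at -0.07 with TMM, 0.072 with DESeq2 size factors and -0.30 with library totals.

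By 24 h BKT1 was higher in GA and AZD than in None, and was not called in Glu or S. The GA libraries held 310, 253 and 300 CPM and those of AZD 129, 146, 140 and 115 CPM. BKT1 measured 55.6, 58.3, 62.4 and 55.4 CPM in Glu, 60.4, 66.0, 60.0 and 69.2 CPM in S, and 64.0, 54.4, 58.6 and 65.4 CPM in None. GA lay wholly above AZD, AZD wholly above the other 3 groups, and Glu, S and None overlapped.

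The mean of BKT1 at 24 h was 288 ± 30.4 CPM in GA (n = 3) and 60.6 ± 5.08 CPM in None (n = 4), a rise of 4.75-fold (log2 2.25 ± 0.14, edgeR adjusted p = 3.79e-16). AZD averaged 133 ± 13.7 CPM (n = 4), 2.19-fold above None (log2 1.13 ± 0.13, edgeR adjusted p = 1.86e-09). Glu averaged 57.9 ± 3.27 CPM (n = 4) and was not called against None (log2 -0.07, 95% interval -0.33 to 0.20, edgeR adjusted p = 0.665). The sign of that difference turned to 0.072 with DESeq2 size factors. With library totals it was called at -0.30, where the all-gene median was -0.29 and 42.9% of tested genes were called lower. S averaged 63.9 ± 4.45 CPM and was not called either, where 0.955% of tested genes were (log2 0.08, 95% interval -0.19 to 0.34, edgeR adjusted p = 0.950).

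BKT1 in GA exceeded that in Glu by 4.97-fold at 24 h (log2 2.31 ± 0.14, edgeR adjusted p = 3.63e-16) and that in AZD by 2.17-fold (log2 1.12 ± 0.14, edgeR adjusted p = 2.68e-08). AZD exceeded S, the next group in order, by 2.08-fold (edgeR adjusted p = 8.32e-09), where 34.0% of genes were called higher (28.5% with library totals), and exceeded Glu by 2.29-fold (edgeR adjusted p = 5.03e-10), where 40.8% were (43.8%). GA exceeded S by 4.51-fold (edgeR adjusted p = 9.43e-16), where 35.5% of genes were called higher (24.4%). Of the 10 pairs at 24 h BKT1 was called in 7, and the 3 pairs among Glu, S and None were not called. Of the 12142 genes tested, 116 were called in S against None and 5643 to 9413 in each other pair. A call in most pairs was thus common among all genes.

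At 24 h CHYb stood highest in GA, with the other 4 groups close together. Its GA libraries measured 600, 532 and 554 CPM. It measured 253, 228, 226 and 219 CPM in Glu, 233, 195, 232 and 181 CPM in AZD, 177, 189, 192 and 176 CPM in S, and 171, 193, 197 and 193 CPM in None. The lowest GA library held more than every library of the other groups, AZD overlapped Glu, S and None, and Glu lay above every S and None library.

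CHYb averaged 562 ± 34.6 CPM in GA (n = 3) and 188 ± 11.9 CPM in None (n = 4) at 24 h, 2.99-fold higher in GA (log2 1.58 ± 0.11, edgeR adjusted p = 2.94e-15). GA exceeded Glu by 2.43-fold (log2 1.28 ± 0.11, edgeR adjusted p = 9.06e-13) and AZD by 2.67-fold (log2 1.42 ± 0.11, edgeR adjusted p = 3.28e-13). Glu averaged 232 ± 14.8 CPM (n = 4), 1.23-fold above None (log2 0.30 ± 0.10, edgeR adjusted p = 0.00799), a call lost with library totals (log2 0.072). AZD averaged 210 ± 26.4 CPM (n = 4) and was not called against None (log2 0.16, 95% interval -0.04 to 0.36, edgeR adjusted p = 0.146) or against Glu (log2 -0.14, edgeR adjusted p = 0.194). DESeq2 called AZD higher than None (log2 0.24) and lower than Glu (log2 -0.19), and edgeR called the first also with DESeq2 size factors (log2 0.24) or with no filter on low counts (log2 0.26). With the TMM factors kept, leaving out any 1 library of AZD or None left AZD against None not called (log2 0.11 to 0.23). With TMM recomputed, it was called without None replicate 2 (log2 0.25) or 4 (log2 0.28), or AZD replicate 2 (log2 0.29) or 4 (log2 0.32). AZD against S was not called (log2 0.20 ± 0.10, 95% interval -0.01 to 0.40, edgeR adjusted p = 0.0743), but was by DESeq2 (log2 0.30), with its size factors (log2 0.30), with no filter (log2 0.28), or without AZD replicate 4 with the factors kept (log2 0.26). With TMM recomputed, this pair was also called without AZD replicate 2 (log2 0.31) or 4 (log2 0.34), or S replicate 3 (log2 0.29) or 4 (log2 0.25). Against S, CHYb was 3.06-fold higher in GA (edgeR adjusted p = 1.69e-15) and 1.26-fold higher in Glu (edgeR adjusted p = 0.00326, where 31.4% of tested genes were called higher, and 20.7% with library totals), the second lost with library totals (log2 0.048). S and None were not told apart (log2 -0.04, 95% interval -0.24 to 0.16, edgeR adjusted p = 0.970). CHYb was called in 6 of the 10 pairs at 24 h, beside the 5643 to 9413 genes called in each pair other than S against None.

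The background at 24 h was wide, with 36.5% of tested genes called higher in GA than in None, 35.2% in AZD and 32.8% in Glu, and with library totals 26.6%, 31.7% and 23.0%. At 24 h, 8.02% of tested genes had a log2 fold change in GA against None at least as high as that of BKT1 and 14.4% one at least as high as that of CHYb. In GA against AZD, where 23.3% of genes were called higher (12.9% with library totals), the shares were 7.85% for BKT1 and 4.92% for CHYb. In GA against Glu, with 40.8% called higher (36.4% with library totals), they were 7.77% and 21.3%. In AZD against None the shares were 17.9% for BKT1 and 43.0% for CHYb. In Glu against None 35.9% of tested genes rose at least as far as CHYb, and 49.7% fell at least as far as BKT1.

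Whether GA minus Glu equalled AZD minus None was tested at each time. At 24 h the difference between GA and Glu exceeded that between AZD and None by a log2 of 1.18 ± 0.19 for BKT1 (edgeR adjusted p = 2.83e-06) and 1.12 ± 0.14 for CHYb (edgeR adjusted p = 6.42e-08). Of the tested genes, 18.1% had a value at least as high as that of BKT1 and 19.1% one at least as high as that of CHYb. At that time 27.4% of the tested genes were called in this direction. Both genes were called in it under every scaling, tool, filter, block and left-out library listed in the closing section, with 0.97 to 1.27 for BKT1 and 0.91 to 1.17 for CHYb when 1 library was left out. At 1 h neither gene was called, with -0.39 for BKT1 (95% interval -0.77 to -0.01, edgeR adjusted p = 0.210) and 0.04 for CHYb (95% interval -0.26 to 0.33, edgeR adjusted p = 0.908), and 4.51% of all tested genes were called in either direction. The values of the 2 times were not tested against each other.

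The differences from None were also compared between the times. The Glu difference was smaller at 24 h than at 1 h by a log2 of -1.05 ± 0.18 for BKT1 (edgeR adjusted p = 9.60e-06) and -0.53 ± 0.14 for CHYb (edgeR adjusted p = 0.00176), where 31.3% of tested genes were called in this direction. Of the tested genes, 22.1% had a value at least as low as that of BKT1 and 34.6% one at least as low as that of CHYb. With library totals the CHYb value was -0.28 and was not called. The GA difference was larger at 24 h, by 0.52 ± 0.19 for BKT1 (edgeR adjusted p = 0.0150) and 0.53 ± 0.14 for CHYb (edgeR adjusted p = 0.00156). In this direction 33.8% of genes were called. Of the tested genes, 36.0% had a value at least as high as that of BKT1 and 35.6% one at least as high as that of CHYb. With library totals the GA values were 1.13 for BKT1 and 1.15 for CHYb. The all-gene median was then 0.63, and 49.1% of tested genes were called higher. For AZD the values were -0.0030 for BKT1 (95% interval -0.39 to 0.39) and -0.02 for CHYb (95% interval -0.32 to 0.27), and neither was called, while 62.0% of tested genes were. With library totals both were called, at 0.39 and 0.37. On that scale the all-gene median was 0.41, and 41.7% of tested genes were called higher. The S difference was not called at -0.12 for BKT1 and 0.08 for CHYb, and 1.09% of tested genes were called. In these contrasts the time changes together with the title prefix.

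The level of BKT1 itself was lower at 24 h in every treatment, at 60.6 CPM in None at 24 h against 230 CPM in None at 1 h, and at 57.9 CPM in Glu at 24 h against 455 CPM in Glu at 1 h. CHYb in GA held 562 CPM at 24 h and 602 CPM at 1 h. With library totals the order turned, at 534 CPM at 24 h and 361 CPM at 1 h. These levels were not tested against each other, since the prefix changed with the time.

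The ratio of BKT1 to CHYb counts within a library does not depend on how libraries are scaled. As transcript lengths were not used, its changes can be read but not its absolute size. At 1 h it measured 1.65, 1.62 and 1.29 in AZD and 1.25, 1.36, 1.22 and 1.24 in GA. In Glu it was 0.944, 0.722, 0.872 and 0.965, in S 0.817, 0.887, 1.14 and 1.07, and in None 0.818, 0.798, 0.676 and 0.883. The AZD and GA libraries all lay above those of the other 3 groups, while Glu, S and None overlapped.

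**Figure D4:**
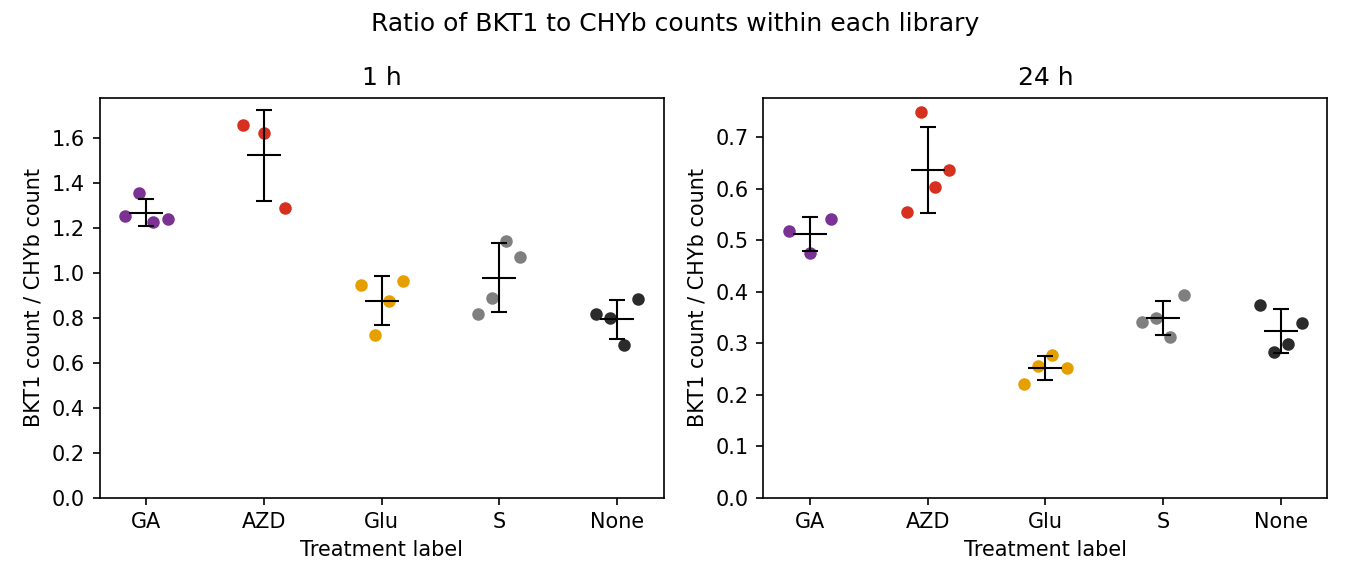
Ratio of the BKT1 count to the CHYb count in each library at 1 h (left) and 24 h (right), each point 1 library and each bar the mean ± SD. At each time the AZD and GA libraries lie above all Glu, S and None libraries, and at 24 h the Glu libraries lie below all others.

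At 24 h the ratio was 0.555, 0.750, 0.604 and 0.637 in AZD, 0.517, 0.476 and 0.542 in GA, 0.220, 0.256, 0.276 and 0.252 in Glu, 0.341, 0.349, 0.312 and 0.394 in S and 0.375, 0.282, 0.297 and 0.340 in None. AZD and GA again lay above the other 3 groups, and every Glu library lay below every S and None library. The mean ratio in AZD was 1.91 times that in None at 1 h and 1.97 times at 24 h, as geometric means. For GA against None the same factors were 1.60 and 1.59, and for Glu against None 1.10 and 0.778. None of the 12 comparisons of this ratio passed an exact two-sided permutation test after Benjamini-Hochberg adjustment. The 8 in which the 2 groups did not overlap had the smallest p their sizes allow, 0.0286 for 4 libraries against 4 and 0.0571 for 3 against 4, and an adjusted p of 0.0857. Comparisons of 3 against 4 could thus not pass at any values. Those of 4 against 4 could pass only if all of them separated fully, S against None included. The lack of a pass therefore does not decide whether the ratio changed. In GA against AZD the log2 ratio differed by -0.26 at 1 h, with overlapping groups (exact permutation p = 0.114), and by -0.31 at 24 h, where every GA library lay below every AZD library.

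The coefficient of variation of BKT1 ran from 4.30% in None to 22.4% in Glu at 1 h, and that of CHYb from 1.87% in AZD to 13.4% in Glu at 1 h. In Glu at 1 h, replicate 4 held the highest level of both genes, and without it and S replicate 1, and with TMM recomputed, BKT1 was called higher in AZD than in Glu (log2 0.30).

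After the mean of each time was taken away, BKT1 and CHYb correlated at r = 0.83 over the 38 libraries (Spearman's rho 0.66), and BKT1 ranked 192 among the 11612 other genes with a mean of at least 1 CPM in likeness to CHYb and CHYb ranked 544 in likeness to BKT1. By Spearman's rho the ranks were 864 and 1450. The libraries share treatments and scaling, so this describes likeness and carries no test. By Pearson's r over the libraries, the genes most like BKT1 were Cz06g32210 (r = 0.96), Cz06g16130 (r = 0.96) and Cz02g00050 (r = 0.95). Those most like CHYb were Cz02g35280 (r = 0.96), Cz12g10170 (r = 0.96) and Cz02g05100 (r = 0.95). The list depended on the measure. Over the 10 group means none of these 3 was among the 3 nearest to BKT1, which were Cz19g00210, UNPLg00157 and Cz14g04140, and by Spearman's rho only Cz02g00050 was. For CHYb, Cz02g35280 was among the 3 by every measure, Cz12g10170 by group means too, and Cz02g05100 by Pearson's r over the libraries alone. The table gives IDs without names or products, so these genes are given by ID.

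Cz06g32210 at 24 h averaged 912 ± 126 CPM in GA, 232 ± 11.4 in AZD, 67.0 ± 6.62 in Glu and 55.5 ± 5.79 in None. GA was highest and AZD next, as for BKT1. At 1 h its mean was higher in Glu (2816 ± 928 CPM) than in AZD (2268 ± 287 CPM), the reverse of the BKT1 means. Cz02g00050 held 307 ± 39.2 CPM in GA, 235 ± 15.0 in AZD, 85.2 ± 9.53 in Glu and 90.6 ± 4.28 in None at 24 h. Of the genes like CHYb, Cz12g10170 averaged 280 ± 30.7 CPM in GA, 155 ± 8.40 in AZD, 229 ± 26.5 in Glu and 126 ± 2.62 in None at 1 h, and 174 ± 14.2, 54.0 ± 8.66, 77.3 ± 2.92 and 52.9 ± 4.82 CPM at 24 h in the same order of groups. Like CHYb, it stood high in GA and Glu at 1 h and in GA at 24 h. These genes were chosen for likeness in the same libraries, so a shared order of groups is no separate result.

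**Figure D5:**
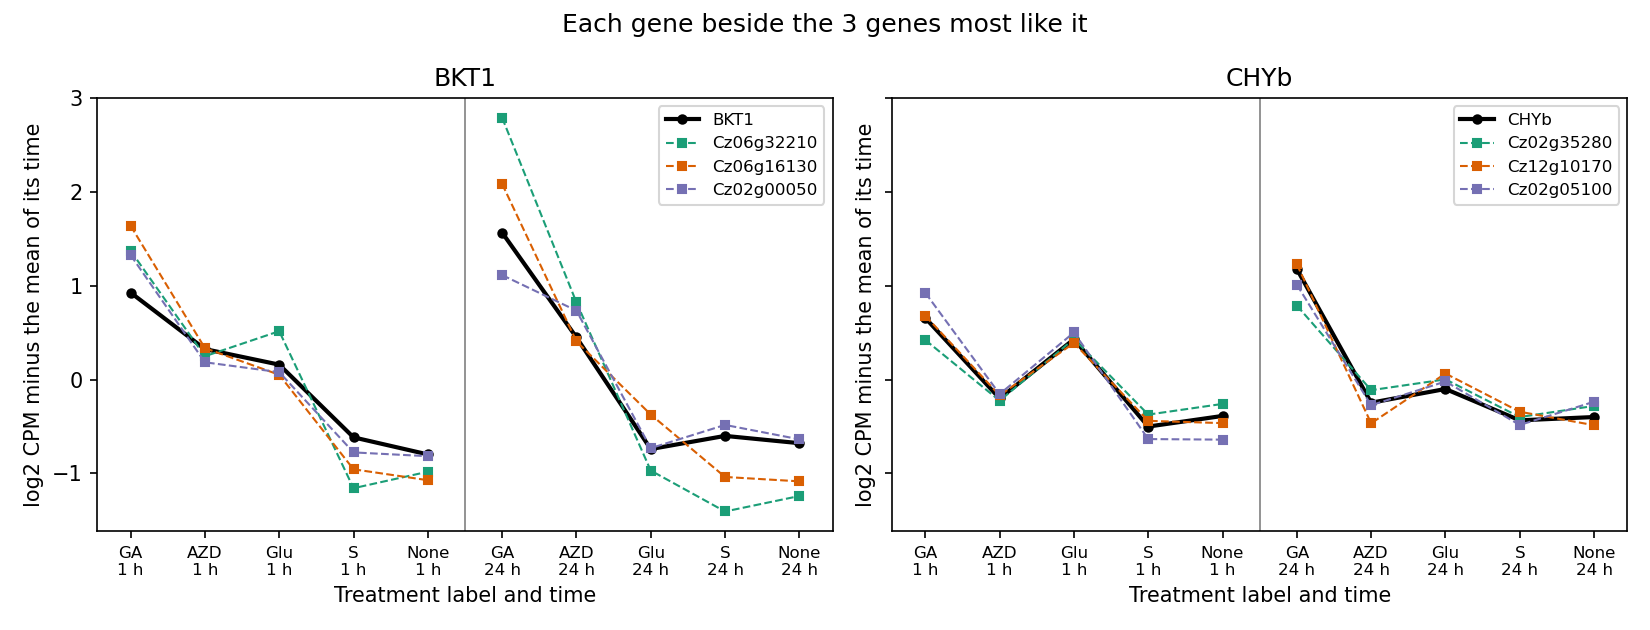
Group means of log2 CPM minus the mean of the 5 groups of the same time, for BKT1 (left) and CHYb (right) and the 3 genes most like each, at 1 h and 24 h. The lines of each panel share their high point in GA at 24 h other than Cz02g00050, which is highest in GA at 1 h.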

How the data were processed

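Poly(A)-selected RNA from 38 wild-type libraries was sequenced, and reads were trimmed with BBDUK, per the labels' protocols. The authors deposited estimated counts per gene, and Salmon and DESeq2 1.46.0 are listed, with no step attached, per the submitters' processing notes. The build, gene models and strandedness are not stated in the material used here. Here counts were rounded, genes with low counts removed (filterByExpr, minimum count 10, minimum total 15), and 12142 of 12459 genes fitted by edgeR 4.0.16 (R 4.3.3) with TMM scaling in 1 quasi-likelihood model of the 10 groups (28 residual degrees of freedom). P-values were adjusted by Benjamini-Hochberg over all genes tested, with calls at 0.05; SE is the log2 fold change divided by the root of its F, an approximation. The BKT1 to CHYb ratio (pseudocount 0.5) was tested by exact permutation in SciPy 1.17.1. The genes named as most alike are the 3 with the highest Pearson correlation to each member. Scripts were tested on simulated data. The members and lists were chosen with earlier results of these data known. Alternatives were other scalings, no filter, a replicate block, fits of fewer groups, DESeq2 1.42.0 and leaving out libraries, with TMM recomputed or, chosen after seeing the data, kept. Other genes of the pathway were not analysed here, since the IDs carry no names.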

Additional observations from a re-analysis of the deposited data

Results flagged for a closer look

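In 6 results the effect of one contrast differed between conditions or times by its own test. The difference between GA and Glu at 24 h exceeded that between AZD and None by a log2 of 1.18 for BKT1 and 1.12 for CHYb. The Glu difference from None was smaller at 24 h than at 1 h, by -1.05 for BKT1 and -0.53 for CHYb. The GA difference from None was larger at 24 h than at 1 h, by 0.52 for BKT1 and 0.53 for CHYb. The last 4 values set times against each other that also differ in title prefix. No library lay apart from the rest of its group by Dixon's test in any of 24 sets of 4 values of BKT1, CHYb and their ratio. Groups of 3 libraries were not checked, which left out the 24 h GA group and the 1 h AZD group. BKT1 in the latter held 546, 550 and 421 CPM, and whether its lowest library lay apart was not tested.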

How the results depend on the processing

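Of the alternative values for the 2 genes with no library or several left out, 291 kept direction and side of the threshold, 8 lost a call, 12 gained one and 21 changed sign. The cause was not tested. With library totals alone, at 1 h CHYb was at -0.29 in AZD against None, 0.069 in GA against None, -0.038 in AZD against S and -0.29 in GA against Glu, and BKT1 at 0.24 in GA against Glu and 0.10 in GA against AZD. At 24 h CHYb was at 0.072 in Glu against None and 0.024 in S against None. It was at 0.048 in Glu against S and 0.0049 in AZD against Glu. BKT1 was then at -0.30 in Glu against None and -0.44 in Glu against S, where the all-gene medians were -0.29 and -0.38. For 24 h less 1 h, CHYb was at 0.37 in AZD and -0.28 in Glu, and BKT1 at 0.39 in AZD and 0.093 in S. Without a filter, CHYb in AZD against S was at 0.20 at 1 h and 0.28 at 24 h, CHYb in AZD against None at 0.26 at 24 h, BKT1 in Glu against None at 0.061 at 24 h, and the AZD difference of the times at 0.18 for CHYb and 0.21 for BKT1. Fits of the groups compared gave CHYb 0.21 in AZD against S and -0.012 for GA minus Glu less AZD minus None at 1 h, and BKT1 0.022 for AZD between times. Without S replicate 1 and Glu replicate 4, CHYb in GA against Glu was at 0.31 and BKT1 in AZD against Glu at 0.30 at 1 h. The DESeq2 test gave CHYb 0.21 in GA against Glu at 1 h, and at 24 h 0.24 in AZD against None, 0.30 in AZD against S and -0.19 in AZD against Glu. It gave BKT1 0.071 in Glu against None and 0.015 in Glu against S at 24 h, and the AZD difference of the times 0.052 for CHYb and 0.077 for BKT1. DESeq2 size factors in edgeR gave BKT1 0.072 in Glu against None and 0.015 in Glu against S at 24 h, the AZD difference of the times 0.051 for CHYb and 0.078 for BKT1, and CHYb 0.24 in AZD against None and 0.30 in AZD against S at 24 h.

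In each of these refits other than the block, the scaling moved with the setting. TMM was recomputed, or replaced by library totals or by DESeq2 size factors, which the DESeq2 test also used. Leaving out 1 library with TMM recomputed moved the all-gene median too, for AZD between times to at most 0.23, against 0.014 with no library left out. CHYb in GA against None at 1 h then ran from 0.84 to 0.94 and BKT1 from 1.54 to 1.61, below the reported 1.04 and 1.73, and with the other libraries' TMM factors kept, a setting chosen after seeing the data, from 1.005 to 1.10 and from 1.70 to 1.77. Over both ways of scaling a call or sign changed in 10 results, and changes seen only with TMM recomputed cannot be put down to the library. CHYb at 1 h ran from 0.18 to 0.32 in AZD against S, from 0.053 to 0.31 in GA against Glu and from -0.032 to 0.13 in GA minus Glu less AZD minus None. At 24 h CHYb ran from 0.11 to 0.32 in AZD against None, from -0.080 to 0.0080 in S against None and from 0.14 to 0.34 in AZD against S. BKT1 at 24 h ran from -0.11 to 0.11 in Glu against None and from -0.18 to 0.0026 in Glu against S, and the AZD difference of the times from -0.080 to 0.24 for CHYb and from -0.12 to 0.26 for BKT1. With the factors kept, 4 calls changed: CHYb in AZD against S at 1 h was lost without AZD replicate 2, in GA against Glu at 1 h gained without Glu replicate 4 or GA replicate 4, and in AZD against S at 24 h gained without AZD replicate 4. The ratio kept its direction in all 15 values with a pseudocount of 5 or without S replicate 1 and Glu replicate 4. It did so too in all 91 values with 1 library left out, each value being 1 comparison in 1 setting. With 1 library left out the smallest p its test can give is 0.0571 to 0.133, so no such test could pass. The correlation of BKT1 with CHYb was 0.86 over group means and 0.66 by Spearman's rho, against 0.83. The replicate block changed no call of the 2 genes. Same-numbered libraries did not deviate together (median r -0.033 at 1 h and -0.058 at 24 h, 36 pairs each, and 5 of 38 libraries correlated best with their own number). The block left 35 genes called in S against None at 24 h, against 116 without it, and 58 for S between times, against 132.

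With library totals 1280 genes were called higher and 7732 lower in GA against None at 1 h, against 4495 and 3606 with TMM. Counts of all genes called moved by over 1.5 times for Glu against None at 1 h (6586 with library totals, against 3781) and Glu against S at 1 h (1479 in a fit of both groups, against 3362). In S against None at 1 h they ran from 1 to 156, against 8, and for GA minus Glu less AZD minus None at 1 h from 217 to 1297, against 547. In S against None at 24 h they ran from 20 to 254, against 116, and for S between times from 14 to 431, against 132.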
